A study of Vitis vinifera with 204 samples.

Results

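The genes described here are 220 genes of the Cabernet Sauvignon grape berry (Vitis vinifera) whose RNA level was higher early in ripening than before it or at harvest. They were selected on measured values. For each gene, the mean of log2(RPKM + 1) was taken per season and then over 3 seasons in green berries before veraison, in early ripening (days 8 to 22 after veraison) and at harvest (the last 2 time points of a season). RPKM is a read count corrected for the length of the gene and the size of the library. Genes at least 2-fold higher in early ripening than in green berries and at least 2-fold lower at harvest than in early ripening were taken. Genes had to reach 1 RPKM in 3 or more libraries to be considered. The selection gave 220 genes, or 1.06% of those considered, out of 29971 gene IDs in the deposited table. Because the values themselves chose the genes, the step up into early ripening and the step down to harvest are given below as descriptions, with no test.

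Veraison is the onset of ripening in grapes, when berries soften, begin to take up sugar quickly and, in red cultivars, start to make anthocyanins in the skin. Softening involves loosening and partial breakdown of cell walls, and organic acids fall while hexoses collect in the vacuoles. Abscisic acid rises around this time and is held to promote ripening in grapes, which are non-climacteric fruit. None of the 29971 IDs (0 matched) is paired with a gene name or description in the tables used here, so no role is given to any gene and no list of pathway genes or seed markers could be counted.

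The berries came from clone FPS 8 on 5C rootstock, grown near Modesto, California. After fruit set, vines were thinned by 75%, which left 1 cluster on every other shoot, or by 50%, which left 1 cluster per shoot. Unthinned vines were not analysed here. A library was made from a pool of 60 berries out of 6 clusters, with seeds removed during grinding, by a protocol that does not keep strand. There were 3 libraries for each of 68 combinations of season (2012, 2013 and 2014), day and thinning, taken along 9 rows with 3 rows per treatment. The pools mix berries, and p-values below measure the spread between such pools. The main fits hold no term for row and take libraries of different days as independent. A difference between rows therefore cannot be told apart from one of thinning. Day 0 is the day of veraison in the labels. In bulk tissue, fewer cells of a type and less RNA per cell cannot be told apart. Reads from overlapping antisense genes are not separated in these libraries, and the sources used here do not say to which gene a read shared by near-identical genes was given.

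The deposited values come in 2 forms, told apart after the values were seen. A list was made of 9114 genes with a mean of at least 5 RPKM in every combination of day and thinning of 2012. In 83 libraries at least 20 of these genes are listed under 0.5 RPKM. These second-form libraries are the 72 of 2014 and 11 of 2013, with 0 of 2012. Since the list was drawn from 2012, the 0 of 2012 is largely set by the list. Of the 220 transient genes, 11 (5.0%) differed at least 2-fold between the forms in 2013 green berries, against 1.95% of all genes tested. This estimate rests on 2 second-form green libraries of 2013, both replicate 2 of the 75% arm. The transient genes made up 1.22% of the summed RPKM in the library of day -20 and 7.4% in that of day -6. Where they are low, the estimate can miss genes whose values follow the form. On day -6 the 3 pools of this arm varied, with a median SD of 0.36 on the log2 scale for the transient genes, against 0.15 for all genes. The estimate can therefore also count a difference between pools as one of form. The 11 were kept in the counts and not named below. The sum of RPKM values per library had a median of 925588 (lowest 817623, highest 1105136), and read counts were not used, so depth is unknown.

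The transient genes took up a large share of the measured RNA at veraison and little of it before and long after. They held a median of 1.26% of a library's summed RPKM in the 48 green libraries (lowest 0.867%, highest 7.4%). On day 0 the median share was 9.52% over 18 libraries (3.6% to 10.9%), and in early ripening it was 9.44% over 48 libraries (5.33% to 11.4%). It was 4.16% over the 54 libraries between early ripening and harvest (1.98% to 7.5%) and 2.77% over the 36 harvest libraries (1.33% to 5.41%). The ranges of green and early-ripening libraries overlap, because some green libraries close to veraison already held shares far above the green median.

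A single gene, VIT_06s0004g02560, singled out after its values were seen because it had the most RPKM, made up to 2.33% of 1 library. Its median level was 66.0 RPKM in green berries, 12560 on day 0, 15270 in early ripening, 4770 between early ripening and harvest, and 2291 at harvest. Without it the transient genes still held a median of 1.26%, 8.05%, 7.82%, 3.61% and 2.49% of the library sum in the same 5 windows. The median over the 220 genes of their median levels was 8.3, 61.2, 56.6, 24.3 and 13.7 RPKM in these windows, against 10.1, 7.94, 7.28, 7.04 and 7.01 RPKM over all genes tested. The set thus began near the level of an ordinary gene of the berry in green fruit and was several-fold above it at veraison.

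Among the 220 genes, the difference between early ripening and green berries ranged from 1.00 to 8.51 on the log2 scale, with a median of 1.85 and quartiles of 1.34 and 2.63. The difference between harvest and early ripening ranged from -5.70 to -1.01, with a median of -1.81 and quartiles of -2.51 and -1.34. Differences of at least 4-fold were held by 95 genes for the step up, by 91 for the step down and by 43 for both. Harvest levels lay close to the green ones: the difference between harvest and green berries had a median of 0.05, and 138 genes were within 2-fold. A further 45 genes were at least 2-fold above their green level at harvest, and 37 were at least 2-fold below it. For the median gene, 3.47% of the log2 step up remained at harvest. These comparisons use the mean of all green days. By the last green day the median gene already stood 0.825, 1.90 and 0.42 above the first in 2012, 2013 and 2014. Against the first green day, the 2 harvest days were 0.09 and 0.34 higher in 2012, 1.08 and 0.62 in 2013, and 0.23 and 0.22 in 2014.

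The choice rested on 946 genes that were at least 2-fold higher in early ripening than in green berries, of which the 220 are 23.3%, and on 1709 genes at least 2-fold lower at harvest than in early ripening. Genes nearest to a threshold on either side differed little in the step that was close to it. VIT_00s0187g00160, just inside, differed by 1.00 between early ripening and green berries and by -4.29 between harvest and early ripening on the log2 scale. VIT_06s0004g03980, also inside, had 1.16 and -1.01. VIT_04s0044g00030, just outside, had 1.21 and -0.996, and VIT_14s0108g00820, also outside, had 0.994 and -0.994.

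Both thresholds were met in each of the 3 seasons by 93 of the genes, in 2 seasons by 96, in 1 season by 28 and in no single season by 3. Taken alone, 2012 had 208 of them, 2013 had 118 and 2014 had 173. The harvest window began on day 74 in 2012, day 36 in 2013 and day 56 in 2014. In the 75% arm alone 203 of the genes met the rule, and in the 50% arm alone 214 did.

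**Figure D1:**
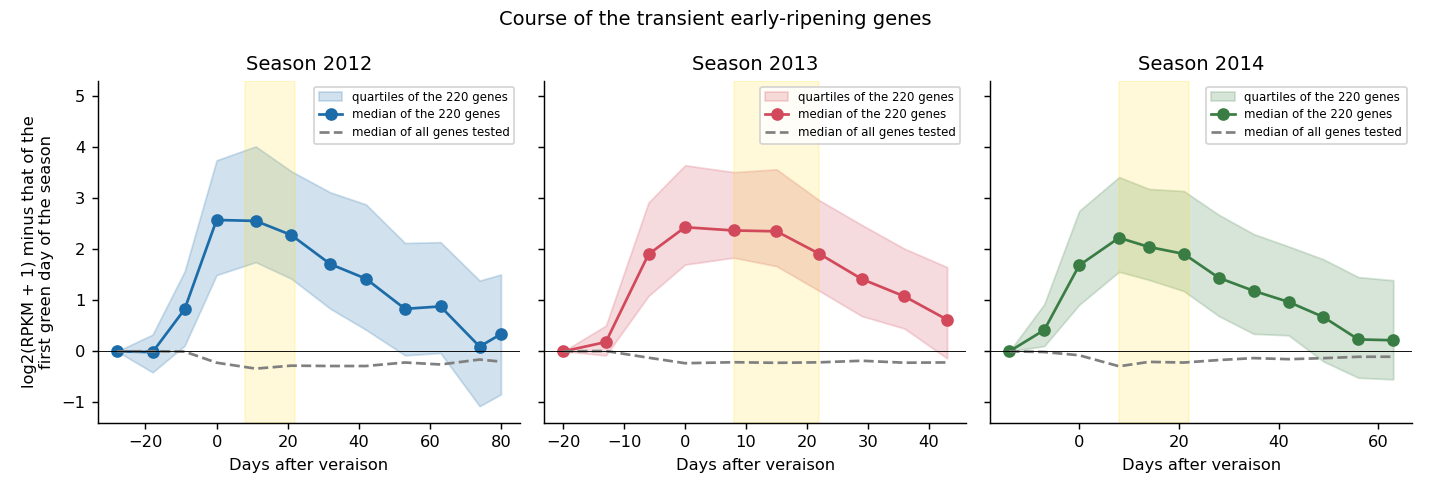
Median (points and line) and quartiles (band) over the 220 transient genes of the log2(RPKM + 1) difference from the first green day of the same season, by days after veraison, with the median of all genes tested as a dashed line; each point rests on 6 libraries and the yellow band marks days 8 to 22. The median is near its peak from day 0 to day 11 in 2012 and from day 0 to day 15 in 2013, and highest on day 8 in 2014, and it comes back to within 0.7 of the first green day by the last time point of each season.

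The time course showed a fast rise and a gradual fall, between windows fixed by the choice of genes. Against the first green day of its own season, the median gene was 0.83 higher on the log2 scale on day -9 of 2012. It was 2.58 higher on day 0, 2.56 on day 11, 2.28 on day 21 and 1.71 on day 32. It was still 1.425 higher on day 42 and 0.88 on day 63, and 0.34 higher on day 80. In 2013 it was 0.18 higher on day -13, 1.90 on day -6, 2.43 on day 0, 2.35 on day 15, 1.92 on day 22 and 0.62 on day 43. In 2014 it was 0.42 higher on day -7, 1.69 on day 0, 2.23 on day 8 and 1.91 on day 21. It was 1.44 higher on day 28, 0.97 on day 42 and 0.22 on day 63. Over the same days the median of all genes tested stayed between -0.34 and 0.01. The median of the set was therefore highest on day 0 in 2012 and 2013 and on day 8 in 2014. The lead of day 0 was small, with 2.58 against 2.56 on day 11 in 2012 and 2.43 against 2.37 on day 8 in 2013. By single genes, 68 peaked on day 0 and 79 on day 11 in 2012, and 83 on day 0 and 53 on day 8 in 2013.

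Berry sugar at day 0 also differed between the seasons. The labels give a median of 3.04 g/100 ml on day 0 of 2014, against 8.27 in 2013 and 7.11 in 2012. Day 0 of 2014 was thus an earlier point on the sugar scale than day 0 of the other seasons, and the part of this in the seasonal timing was not tested.

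Placed by sugar, the set was highest at intermediate values. The level of the set in a library was taken as the median, over the 220 genes, of log2(RPKM + 1) minus the gene's mean over all libraries. Its median was -1.15 over the 39 libraries under 1 g/100 ml, 0.51 over 15 libraries from 1 to 5, 1.30 over 10 libraries from 5 to 10 and 1.28 over 18 libraries from 10 to 15. It was 1.06 over 37 libraries from 15 to 20, 0.08 over 47 libraries from 20 to 24 and -0.61 over 38 libraries from 24 upward. The highest levels thus lay between 5 and 20 g/100 ml. The windows used to choose the genes span much of this scale. Green libraries had 0.3 to 3.03 g/100 ml, early-ripening libraries 10.2 to 20.9 and harvest libraries 19.8 to 29.6. High levels at intermediate sugar are therefore largely set by the choice of genes. From 24 g/100 ml upward the medians were -1.19 in 2012, -0.38 in 2013 and -0.67 in 2014, with overlapping ranges.

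The 220 genes peaked at different times. By the mean of the 6 libraries of a time point, 70 genes peaked by day 0 in 2012, 129 on days 8 to 22 and 21 later. In 2013 the same counts were 95, 117 and 8, and in 2014 they were 19, 185 and 16. The peak fell on days 8 to 22 in all 3 seasons for 84 genes, by day 0 in all 3 for 16 and after day 22 in all 3 for 2. Days 8 to 22 were used to choose the genes, so a peak there is partly set by the choice.

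A level 2-fold above that of the first green day was first reached on day -9 by 85 genes and on day 0 by 87 in 2012. In 2013 it was reached on day -6 by 159 genes, and in 2014 on day -7 by 51, on day 0 by 111 and on day 8 by 40. A level 2-fold below the gene's early-ripening mean was first reached on day 32 of 2012 by 75 genes, on day 29 of 2013 by 83 and on day 28 of 2014 by 51. By the end of sampling it had not been reached by 41 genes in 2013 and 18 in 2014, while all 220 had reached it in 2012, the season with the longest sampling.

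**Figure D2:**
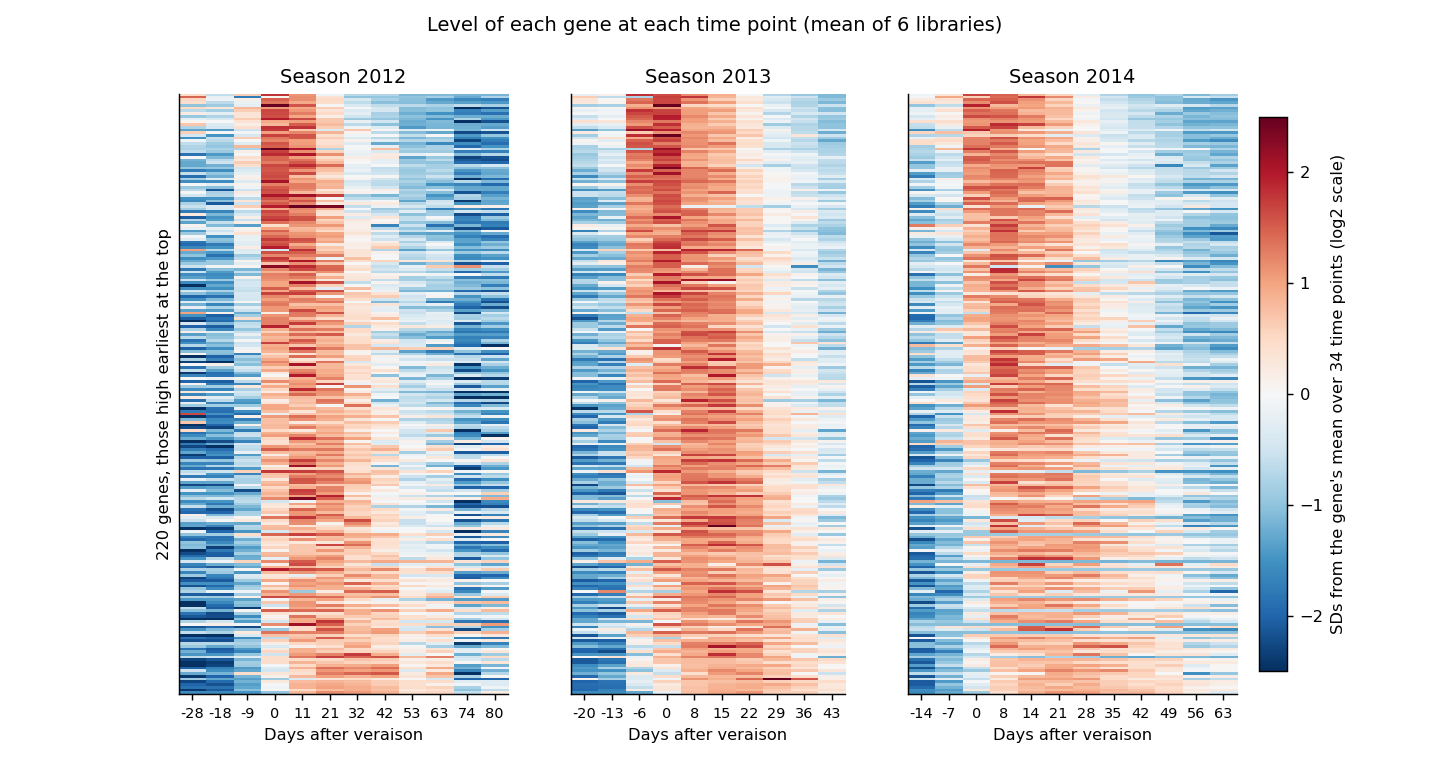
Level of each of the 220 transient genes (rows, those high earliest at the top) at each of the 34 time points (columns, days after veraison, by season), as standard deviations from the gene's own mean on the log2 scale; each cell is the mean of 6 libraries. The rows at the top are high from day 0 or before, those in the middle on days 8 to 15 and those at the bottom into days 28 to 42.

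The shape of the median gene was shared to differing degrees. Over the 34 time points, the Pearson correlation of a gene with the median profile ranged from 0.28 to 0.98, with a median of 0.83, and was at least 0.8 for 129 genes and under 0.5 for 7. These values describe genes chosen for this shape, and the time points share libraries and seasons across genes.

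Pools of the same season, day and thinning varied more in the median gene of the set than in the median gene of the berry. Within such a group of 3 libraries, the median gene of the set had an SD of 0.37 on the log2 scale in green berries, against 0.15 for all genes tested. It was 0.27 against 0.14 on day 0, 0.22 against 0.13 in early ripening, 0.31 against 0.14 between early ripening and harvest, and 0.32 against 0.14 at harvest. Over the 3 seasons together the spread was smallest in early ripening and largest in green berries, while in 2013 alone it was smallest on day 0, with 0.14 against 0.18 in early ripening.

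VIT_12s0059g00490 was the gene open to naming whose smaller step, of the step up and the step down, was largest. Its level was lowest 0.816, median 2.54 and highest 627 RPKM in green berries, and 13.1, 311 and 599 RPKM on day 0. It was 106, 405 and 818 RPKM in early ripening, 3.29, 20.8 and 142 RPKM between early ripening and harvest, and 0, 5.11 and 57.7 RPKM at harvest. All 48 early-ripening libraries were above all 36 harvest libraries, while at least 1 green library lay within the early-ripening range. The step up was 5.73 and the step down -5.70 on the log2 scale, and the peak fell on day 11 in 2012, day 8 in 2013 and day 14 in 2014.

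VIT_17s0000g09800, the next by the same measure, was highest on day 0 in all 3 seasons. It had 0.687, 5.63 and 500 RPKM in green berries (lowest, median, highest), 245, 496 and 746 RPKM on day 0, and 24.7, 193 and 529 RPKM in early ripening. It had 7.73, 42.4 and 132 RPKM between early ripening and harvest, and 0, 23.8 and 67.3 RPKM at harvest. Its steps were 3.72 and -3.10 on the log2 scale. The gene with the following ID number, VIT_17s0000g09810, is also in the set and its levels had a correlation of 0.99 with those of VIT_17s0000g09800 over all libraries, which share season, day and thinning.

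Such neighbours by ID number occurred elsewhere in the set. In all, 32 of the 220 genes had the preceding or the following ID in the set as well, in 14 runs. No such count was made for genes outside the set, so whether this is more than among other genes is not known. The longest run was of 4 IDs, VIT_08s0007g08010 to VIT_08s0007g08040, with steps up of 1.37 to 2.89 on the log2 scale and a lowest pairwise correlation of 0.66. The 3 IDs from VIT_05s0094g00330 to VIT_05s0094g00350 held the largest step up of the set, with 6.68 to 8.51 on the log2 scale and a lowest pairwise correlation of 0.93. The middle gene of these, VIT_05s0094g00340, had a median of 7.59 RPKM in green berries, 4557 on day 0, 7891 in early ripening, 3624 between early ripening and harvest, and 2673 at harvest. No sequence was read for these genes, so whether neighbours share reads is not known, and the members of a run are not independent observations.

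Tests were made only on contrasts that the selection did not use, with limma on log2(RPKM + 1) over all genes considered and Benjamini-Hochberg adjustment. For steps in time and between seasons, a gene was called at an adjusted p under 0.05 and a change of at least 2-fold. Since every gene of the set has to go up before early ripening and down before harvest, these tests say when it moved and not whether it did.

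Many of the genes rose before veraison. Between the last and the first green day of a season, 118 of the 220 genes rose, or 53.6%, against 2% of all genes tested. There were 2 that fell, or 0.909%, against 3.49% of all genes. The median change came to 1.09 on the log2 scale for the set and -0.04 for all genes. By season, the set's median was 0.82 in 2012, 1.90 in 2013 and 0.42 in 2014. The last green day was day -9, day -6 and day -7 in these seasons, with mean sugar of 1.24, 2.61 and 0.71 g/100 ml. Without 2013 the number that rose was 68 in the set and 385 over all genes tested, against 416 over all genes with 3 seasons.

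VIT_06s0061g00550 had the largest rise. On the last green day it had a lowest value of 15.5, a median of 1311 and a highest value of 4642 RPKM over 18 libraries, against 0.170, 2.23 and 15.3 RPKM on the first green day. The ranges did not overlap, and the change was 7.03 on the log2 scale (SE 0.32, limma adjusted p = 5.177e-45). On day -7 of 2014 its libraries spread widely, from 15.5 to 1333 RPKM with a median of 20.9.

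VIT_01s0011g05110 had 269, 1438 and 3257 RPKM (lowest, median, highest) on the last green day, against 0.0575, 18.7 and 91.2 RPKM on the first. These ranges did not overlap either, and the change was 6.56 on the log2 scale (SE 0.21, limma adjusted p = 5.536e-63). Both genes were at a far higher level by day 0, with medians of 5684 and 4494 RPKM over 18 libraries.

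The 2 genes that fell, named after their values were seen, did not move alike in the 3 seasons. VIT_08s0058g01210 changed by -3.28 in 2012, -1.44 in 2013 and 1.04 in 2014 on the log2 scale, with a mean of -1.23 (SE 0.14, limma adjusted p = 2.157e-13). VIT_18s0164g00100 changed by -3.70, 0.77 and -0.74 in the same seasons, with a mean of -1.22 (SE 0.12, limma adjusted p = 2.645e-17). In both, day -28 of 2012 stood above day -9.

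Within early ripening more genes of the set fell than rose. From the first to the last day of the window (days 8 or 11 to days 21 or 22), 19 genes fell, or 8.64%, against 1.16% of all genes tested, and 1 rose, or 0.455%, against 0.544% of all genes. For the set the median change came to -0.40 on the log2 scale, against 0.02 for all genes, and 177 of the 220 genes had a negative value.

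The genes differed in the direction of this step. VIT_01s0137g00240 had 0.892, 12.3 and 45.7 RPKM (lowest, median, highest) on the last day of the window over 18 libraries, against 44.4, 73.8 and 133 RPKM on its first day. It fell by 2.80 on the log2 scale (SE 0.26, limma adjusted p = 2.316e-18), and the ranges touched only at their ends. VIT_13s0019g00330 had 23.9, 87.7 and 223 RPKM on the last day, against 178, 322 and 462 RPKM on the first, and fell by 1.75 (SE 0.19, limma adjusted p = 6.478e-15), with some overlap between seasons.

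The gene that rose was VIT_00s0225g00230. It had 298, 386 and 534 RPKM on the last day of the window, against 43.5, 162 and 285 RPKM on the first, with no overlap. The change was 1.44 on the log2 scale (SE 0.26, limma adjusted p = 5.753e-07), and this gene peaked on days 21, 22 and 21 of the 3 seasons.

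**Figure D3:**
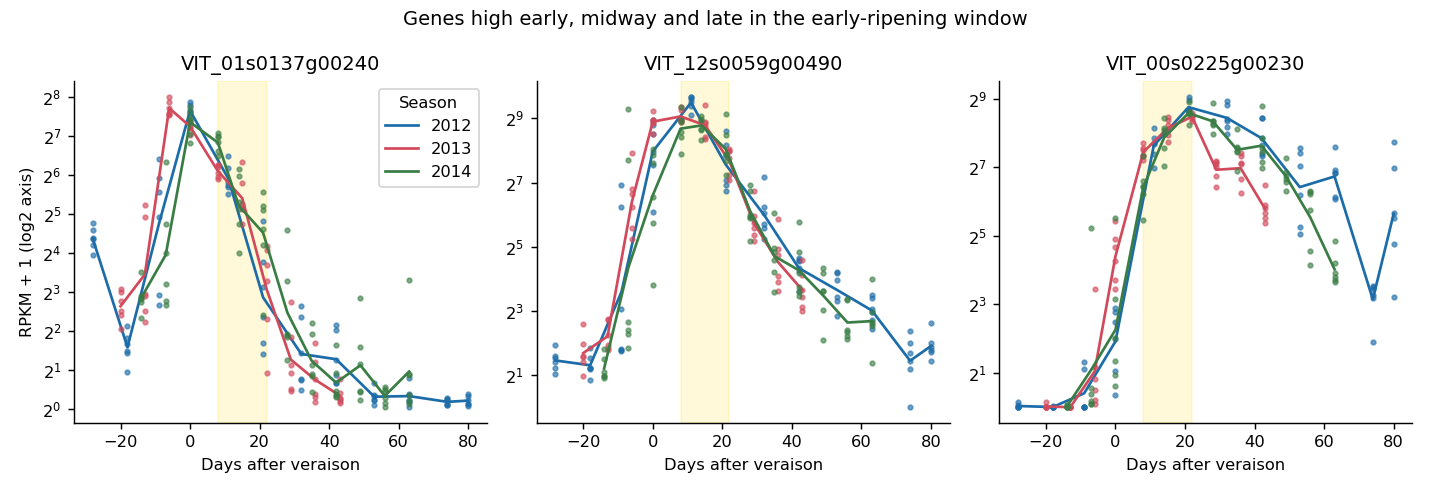
RPKM + 1 on a log2 axis against days after veraison for 3 transient genes; points are libraries, lines are the means of log2(RPKM + 1) of 6 libraries per time point, colours are seasons and the yellow band marks days 8 to 22. VIT_01s0137g00240 is highest at or just before veraison and falls through the band, VIT_12s0059g00490 is highest on days 8 to 14, and VIT_00s0225g00230 is highest on days 21 and 22.

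Days 28 to 32 were compared with day 0, using libraries that took no part in choosing the genes. On the later day 74 genes were lower, or 33.6%, against 10.2% of all genes tested, and 18 were higher, or 8.18%, against 4.82% of all genes. The median difference was -0.55 on the log2 scale for the set and -0.06 for all genes. By season, in counts added after the values were seen, 21 genes were higher and 83 lower in 2012, against 5.73% and 10.8% of all genes, and 10 were higher and 109 lower in 2013, against 7.33% and 8.96% of all genes. In 2014 there were 40 higher and 41 lower, against 4.72% and 14% of all genes. The set thus held genes that peaked at veraison and were low a month later beside genes that were still at a higher level a month later than at veraison.

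VIT_01s0137g00240 had 0.356, 2.12 and 22.9 RPKM (lowest, median, highest) on days 28 to 32 over 18 libraries, against 113, 169 and 232 RPKM on day 0. It fell by 5.71 on the log2 scale (SE 0.26, limma adjusted p = 9.565e-46). VIT_13s0019g00330 had 7.03, 28.1 and 59.8 RPKM on days 28 to 32, against 186, 571 and 845 RPKM on day 0, and fell by 4.35 (SE 0.19, limma adjusted p = 3.936e-48). In both genes all 18 later libraries were below all 18 of day 0.

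VIT_00s0225g00230 had 84.7, 295 and 489 RPKM on days 28 to 32, against 0.289, 6.11 and 44.8 RPKM on day 0. It rose by 5.04 on the log2 scale (SE 0.26, limma adjusted p = 6.000e-41). VIT_05s0094g00350 had 936, 1574 and 2968 RPKM on the later days, against 23.04, 356 and 673 RPKM on day 0, and rose by 2.87 (SE 0.29, limma adjusted p = 2.548e-17). The 18 later libraries were above the 18 of day 0 in both.

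The size of this difference varied with season. The median over the set was -0.57 in 2012, -0.999 in 2013 and -0.06 in 2014 on the log2 scale, against -0.07, 0.02 and -0.12 for all genes, so the set's median did not lie below that of all genes in 2014. A moderated F test of the 3 season differences, chosen after seeing the data, called 157 of the 220 genes, or 71.4%, against 60.4% of all genes tested. Season differences were thus common among all genes, and without replicate 2 the shares were 43.6% of the set and 46.4% of all genes. Within each season, both days compared held libraries of 1 form of the values.

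Between early ripening and harvest each gene that was called fell. In the 2 seasons with such days, from day 32 to day 63 in 2012 and from day 28 to day 49 in 2014, 85 genes fell, or 38.6%, against 1.52% of all genes tested. The number that rose was 0 by limma, against 0.785% of all genes, and 0 genes had a positive change with an unadjusted p under 0.05, against 30.3% of all genes. Over the set the median change came to -0.85 on the log2 scale, against 0.02 for all genes, and it was -0.86 in 2012 and -0.79 in 2014. None of these libraries was used by the rule, though a fall somewhere between early ripening and harvest is fixed by it.

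VIT_17s0000g00830 had 25.9, 38.0 and 87.1 RPKM (lowest, median, highest) on the later day over 12 libraries, against 180, 297 and 681 RPKM on the earlier day. It fell by 2.90 on the log2 scale (SE 0.18, limma adjusted p = 8.343e-31), with no overlap. VIT_08s0007g08020, a gene of the run of 4 IDs above, had 7.90, 27.5 and 94.4 RPKM on the later day, against 39.3, 264 and 429 RPKM on the earlier day. It fell by 2.82 (SE 0.26, limma adjusted p = 1.168e-18), and its ranges overlapped across seasons but not within 2012 or within 2014.

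Across the last step before picking, averaged over the seasons, 0 of the 220 genes passed in either direction by limma, against 0.00963% of all genes tested for higher and 0.0241% for lower. At an unadjusted p under 0.05, 6 genes were higher and 63 lower, or 2.73% and 28.6%, against 7.12% and 12.3% of all genes. The set had a median change of -0.12 on the log2 scale, and the seasons differed: it was 0.21 from day 74 to day 80 in 2012, -0.50 from day 36 to day 43 in 2013 and -0.07 from day 56 to day 63 in 2014. In 2012 alone, 18 genes were called higher and 2 lower, against 0.597% and 0.409% of all genes. In 2013 alone, 22 were called lower, against 0.847% of all genes, and 0 higher by limma, against 0.0433%, with 0 also at an unadjusted p under 0.05. In 2014 alone, 1 was called lower and 0 higher by limma, against 0.0481% and 0.116% of all genes, with 27 lower and 2 higher at an unadjusted p under 0.05. The higher levels on day 80 of 2012 lay mainly in replicate 2, whose set level was -0.82 in the 75% arm, against -1.39 on day 74, and -0.71 in the 50% arm, against -1.22 on day 74. Sugar in these 2 libraries of day 80 was 22.5 and 19.8 g/100 ml. In the 4 other libraries of day 80 the set level was between -1.44 and -1.16, against -1.51 to -1.19 on day 74. Mean sugar on the later of these days was 25.2 g/100 ml in 2012, against 27.2 on the earlier day. In 2013 it was 25.5 on the later day, against 24.1 on the earlier day.

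The 3 season changes of this last step were compared by a moderated F test, chosen after seeing the data, which called 99 of the 220 genes, or 45%, against 36.9% of all genes tested. Without replicate 2 it called 33, or 15%, against 13% of all genes, so the set stood close to all genes. In 2013 the earlier day held 3 libraries of the second form, all of the 75% arm, and the later day held 6. The median change of the set in 2013 was -0.41 in the 75% arm, whose libraries are of 1 form on both days, and -0.52 in the 50% arm, where the form changes. In the 75% and 50% arms it was 0.28 and 0.11 in 2012, and 0.02 and -0.18 in 2014. With the form as a covariate the F test called 79 genes of the set. The count over all genes is not given for that fit, so the 79 are not read as a result about the set.

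**Figure D4:**
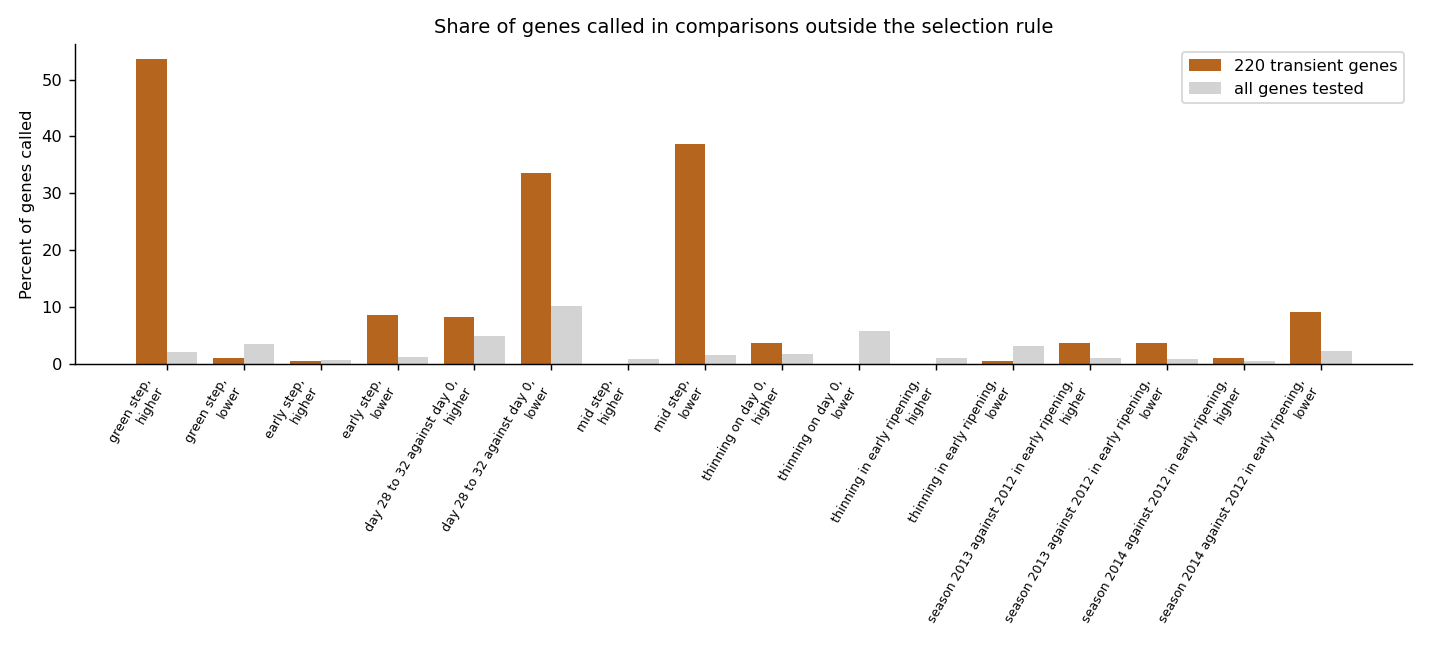
Share of the 220 transient genes (left bar of each pair) and of all genes tested (right bar) called higher or lower in each comparison, in percent; steps in time and seasons also needed a change of at least 2-fold. The set stands above all genes for the rise before veraison (53.6% against 2%) and for the falls after it, up to 38.6% against 1.52%. The choice of genes fixes a rise before early ripening and a fall before harvest, so these shares bear on when the genes moved and not whether. The season shares are partly set by the choice as well.

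Thinning was compared as 75% against 50%, the question the vineyard treatments address. Over all time points 0 of the 220 genes passed in either direction by limma at an adjusted p under 0.05, against 0.169% of all genes tested for higher and 0.64% for lower. At an unadjusted p under 0.05, 4 were higher and 15 lower, or 1.82% and 6.82%, against 5.58% and 11.5% of all genes, and the median difference was 0.01 on the log2 scale, against -0.01 for all genes. In 2013 alone 5 genes were lower under 75% thinning, against 0.944% of all genes, and 0 were higher by limma, against 0.00481%, with 0 also at an unadjusted p under 0.05. In that season arm and form of the values were partly mixed. On day 36 the 75% libraries were of the second form and the 50% libraries of the first. Both second-form green libraries were in the 75% arm too. Over the 3 seasons, limma called 25 of all genes tested with the form as a covariate, against 168 without it, and 0 of the set in both. The part of the form in the 5 genes was not tested. The thinning difference was positive for 85 of the 220 genes in 2012, 80 in 2013 and 158 in 2014.

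On day 0 alone, the set leaned towards the 75% arm. There were 8 genes higher in 75% thinned berries, or 3.64%, against 1.69% of all genes tested, and 0 lower, against 5.75% of all genes. At an unadjusted p under 0.05, limma had 59 higher and 2 lower, or 26.8% and 0.909%, against 6.06% and 16.5% of all genes. The median difference was 0.28 on the log2 scale, against -0.04 for all genes, with 205 of the 220 genes positive. By season the median was 0.25 in 2012, 0.03 in 2013 and 0.54 in 2014. In 2014 alone 18 genes were higher and 3 lower, against 1.28% and 9% of all genes. In 2012 alone 0 passed in either direction by limma, against 0.135% of all genes for higher and 0.197% for lower, with 17 higher and 0 lower at an unadjusted p under 0.05. In 2013 alone 0 passed as well, against 0% and 0.00481% of all genes, with 0 in either direction at an unadjusted p under 0.05. Without 2014, without replicate 2 and without replicate 3 the number of genes of the set called was 0 each time. Over all genes tested it was 3, 309 and 190, against 1545 with all libraries. Without replicate 1 the number was 16 in the set and 1544 over all genes.

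Among the 7 called genes open to naming with the same sign in each season, VIT_04s0023g03600 had the largest difference. On day 0 of 2014 it had 86.9, 69.5 and 82.6 RPKM in 75% thinned berries, against 49.8, 25.8 and 48.7 RPKM in 50% thinned berries, with no overlap. In 2013 it had 144, 113 and 118 RPKM under 75% thinning, against 119, 130 and 86.8 RPKM under 50%, and these ranges overlapped. In 2012 it had 96.3, 177 and 116 RPKM under 75% thinning, against 99.0, 56.8 and 68.6 RPKM under 50%, and the lowest library of the 75% arm lay below the highest of the 50% arm. The mean difference was 0.64 on the log2 scale (SE 0.19, limma adjusted p = 0.0213). It did not pass without 2014, where the difference was 0.47 (limma adjusted p = 0.580), without 2012, or without replicate 2 or 3.

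VIT_05s0020g04570 averaged 35.0 ± 9.40 RPKM in 75% thinned berries and 27.1 ± 12.1 RPKM in 50% thinned berries on day 0 (SD, n = 9 each). In 2014 it had 25.7, 21.6 and 42.5 RPKM under 75% thinning, against 14.5, 7.86 and 25.9 RPKM under 50%, with overlapping ranges. The mean difference was 0.47 on the log2 scale (SE 0.16, limma adjusted p = 0.0480), and without 2014 it was 0.23 (limma adjusted p = 0.807).

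Sugar is given beside the set levels here. On day 0 of 2014 it was 3.66 ± 1.00 g/100 ml in the 75% arm and 2.43 ± 1.09 g/100 ml in the 50% arm (SD, n = 3 each), and the level of the set was 0.82 ± 0.23 in the 75% arm and 0.32 ± 0.30 in the 50% arm. In 2013 sugar was 8.78 ± 1.65 under 75% thinning and 8.20 ± 1.33 under 50%, with set levels of 1.34 ± 0.05 and 1.34 ± 0.02. In 2012 sugar was 8.07 ± 2.02 under 75% thinning and 7.07 ± 0.06 under 50%, with set levels of 1.25 ± 0.14 and 0.95 ± 0.39. In the 50% arm of 2012 the set levels ran from 0.52 to 1.29 at nearly equal sugar, 7.00 to 7.12 g/100 ml. The part of ripening stage in the difference between arms was not tested.

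The arms stood furthest apart on day -7 of 2014. The 3 libraries of the 75% arm had set levels of -1.05, 0.06 and 0.47, against -1.19, -1.09 and -0.998 in the 50% arm. In the 75% arm, 2 libraries were thus above the 3 of the 50% arm by more than 1 log2 unit and the remaining library was within 0.15 of them. Mean sugar was 0.80 ± 0.16 g/100 ml under 75% thinning and 0.61 ± 0.06 g/100 ml under 50% (SD, n = 3 each). On day -9 of 2012 the order was the other way, with mean set levels of -0.75 ± 0.47 under 75% thinning and -0.44 ± 0.66 under 50%, and with sugar of 1.06 ± 0.27 and 1.42 ± 0.58 g/100 ml.

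**Figure D5:**
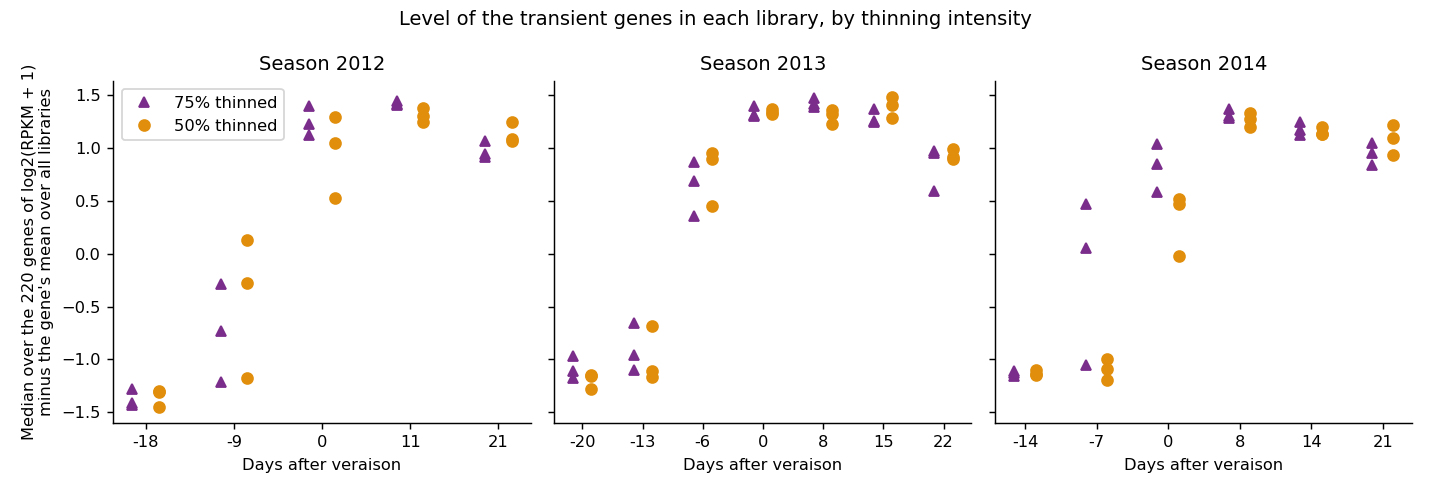
Level of the set in each library (median over the 220 genes of log2(RPKM + 1) minus the gene's mean over all libraries), for 75% thinned berries (triangles, left) and 50% thinned berries (circles, right), on the days around veraison in each season; 3 libraries per arm and day. The arms lie apart on day 0 of 2014 and overlap on days 8, 14 and 21 of that season, and on day -7 of 2014 the 75% libraries run from -1.05 to 0.47 against -1.19 to -0.998 in the 50% arm.

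In early ripening 0 genes were higher in 75% than in 50% thinned berries by limma, against 1.07% of all genes tested, and 1 was lower, or 0.455%, against 3.14% of all genes. At an unadjusted p under 0.05, 2 genes were higher and 6 lower, or 0.909% and 2.73%, against 5.34% and 12.2% of all genes, and the median difference was -0.06 on the log2 scale. The gene that was lower, VIT_06s0061g01470, had 2.22, 4.90 and 8.16 RPKM (lowest, median, highest) in 75% thinned berries, against 2.40, 6.09 and 9.20 RPKM in 50% thinned berries over 24 libraries each. The difference of -0.22 on the log2 scale (SE 0.07, limma adjusted p = 0.0494) lay just within the threshold, the ranges overlapped almost fully, and it did not pass when any season was left out.

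Whether the thinning difference itself varied with season was tested by a moderated F test of the 3 season differences. On day 0 limma called 0 of the 220 genes, against 1.95% of all genes tested, with 12, or 5.45%, at an unadjusted p under 0.05, against 8.94% of all genes. In early ripening it also called 0, against 0.053% of all genes, with 1, or 0.455%, at an unadjusted p under 0.05, against 10.1% of all genes.

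The seasons were compared within early ripening, where the rule had used only the average over them. A gene high in some seasons only could enter the set through those seasons. Shares and p-values of these comparisons are therefore not independent of the choice of genes, which can raise the shares above those of all genes. The sampled days were 11 and 21 in 2012, 8, 15 and 22 in 2013, and 8, 14 and 21 in 2014, so for genes that change within the window, season and sampling day cannot be told apart. Between 2013 and 2012, 8 genes were higher in 2013, or 3.64%, against 1.01% of all genes tested, and 8 were lower, or 3.64%, against 0.886% of all genes. The median difference was -0.03 on the log2 scale, so the middle of the set hardly moved while single genes were far apart. The libraries of both seasons in this window are of the first form.

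VIT_01s0011g04820 had 1.23, 3.34 and 6.00 RPKM (lowest, median, highest) in 2013 over 18 libraries, against 42.4, 53.8 and 122 RPKM in 2012 over 12. It was lower in 2013 by -3.80 on the log2 scale (SE 0.17, limma adjusted p = 8.484e-45), with no overlap. Its step up into early ripening was 0.12 in 2013 alone, against 3.53 in 2012 alone, so its place in the set rests on the other seasons. VIT_13s0067g00700 had 38.8, 58.0 and 72.1 RPKM in 2013, against 70.6, 141 and 185 RPKM in 2012, a difference of -1.20 (SE 0.16, limma adjusted p = 2.041e-11).

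VIT_05s0020g01080 was higher in 2013, with 19.1, 27.5 and 60.5 RPKM, against 9.21, 13.2 and 16.6 RPKM in 2012. The ranges did not overlap, and the difference was 1.20 on the log2 scale (SE 0.10, limma adjusted p = 1.098e-20). VIT_07s0005g01700 had 4.25, 14.0 and 22.7 RPKM in 2013, against 1.12, 5.62 and 10.3 RPKM in 2012, a difference of 1.42 (SE 0.21, limma adjusted p = 1.525e-09).

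Between 2014 and 2012, 2 genes were higher in 2014, or 0.909%, against 0.501% of all genes tested, and 20 were lower, or 9.09%, against 2.21% of all genes. Of these 20, 11 were among the form-dependent genes, and all 18 early-ripening libraries of 2014 are of the second form while those of 2012 are of the first. Season and form cannot be told apart for 2014 in this window. As for 2013, the shares are also partly set by the choice of genes. With the form as a covariate, which 2013 green berries alone could inform, 1 gene of the set was higher and 10 were lower. The count over all genes is not given for that fit, so these counts are not read as a result about the set.

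VIT_01s0011g04820 was lower in 2014 too, with 2.09, 9.57 and 19.6 RPKM, against 42.4, 53.8 and 122 RPKM in 2012. The difference was -2.69 on the log2 scale (SE 0.17, limma adjusted p = 1.812e-31), with no overlap. The 2 genes that were higher were VIT_01s0137g00240, with 4.29, 42.1 and 133 RPKM in 2014 against 1.64, 35.7 and 88.7 RPKM in 2012, and VIT_07s0005g01700, with 4.89, 8.40 and 25.6 RPKM in 2014 against 1.12, 5.62 and 10.3 RPKM in 2012. Their differences were 1.14 (SE 0.29, limma adjusted p = 0.000659) and 1.05 (SE 0.21, limma adjusted p = 7.303e-06) on the log2 scale. With the form as a covariate the differences were 0.876 and 0.683, and neither passed (limma adjusted p = 0.542 and 0.485). The form term rests on 2 second-form green libraries of 2013, and the part of the form in these differences was not tested.

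VIT_05s0049g00780 had the largest difference of the genes open to naming, and its values followed the form. It had 0.0862, 0.703 and 3.13 RPKM (lowest, median, highest) in early ripening of 2014, against 31.7, 41.9 and 131 RPKM in 2012, a difference of -4.79 on the log2 scale (SE 0.28, limma adjusted p = 2.227e-34). In 2013, with libraries of the first form, it had 24.2, 36.2 and 50.3 RPKM. On day 36 of 2013, where the 75% libraries hold the second form and the 50% libraries the first, it had 0.730, 0.0592 and 0.197 RPKM in the 75% arm, against 19.0, 45.2 and 15.9 RPKM in the 50% arm.

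The gene with the preceding ID, VIT_05s0049g00770, is also in the set and was high in libraries of both forms. It had 231, 651 and 840 RPKM in early ripening of 2014, against 570, 736 and 1877 RPKM in 2012, and on day 36 of 2013 it had 355, 165 and 254 RPKM in the 75% arm, against 385, 886 and 293 RPKM in the 50% arm. In first-form libraries of early ripening, VIT_05s0049g00780 was listed at 4.97% to 7.69% of the level of VIT_05s0049g00770, and in second-form libraries at 0.0189% to 0.49%. These values were looked at after the fit, and the difference of VIT_05s0049g00780 between 2014 and 2012 cannot be told apart from the form of the values.

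More broadly, 15 of the 220 genes were at least 2-fold lower in early ripening of 2014 than in both other seasons, or 6.82%, against 1.52% of all genes tested, and 9 of these 15 were among the form-dependent genes. A gene high in the other seasons could enter the set through them, so this share is partly set by the choice.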

How the data were processed

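Berry pericarp was profiled by RNA-seq in 68 cells (a season, day and thinning intensity), each with 3 libraries. The deposited table holds RPKM values that the authors computed with TopHat2 2.0.6 and Cufflinks 2.0.2, per the submitters' processing notes. For settings, genome build and annotation nothing is given in the sources used here. Season and replicate came from titles and source names, since the year tag differs for 134 samples. Depth is unknown, and precision comes from replicate spread.

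Genes reaching 1 RPKM in 3 or more libraries (20770) were tested as log2(RPKM + 1), a scale that understates changes of low genes. Models of cell means were fitted in limma 3.58.1 (R 4.3.3, trended prior variance), except thinning over all time points, which used the season time point and 1 thinning term per season. Adjustment was by Benjamini-Hochberg over all genes with a threshold of 0.05. A gene was form-dependent where its fitted form effect was at least 2-fold with an adjusted p under 0.05. The script was checked on simulated data.

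The members and lists were chosen with earlier results of these data known. Named genes had at least 5 RPKM on average in early ripening, no form dependence by this fit (which VIT_05s0049g00780 passed) and no 0 beside cell mates of 5 RPKM or more. For each comparison they were the 2 called genes per direction with the largest change of the same sign in each season, the 2 with the largest smaller step, and the 4 nearest the thresholds. IDs carry no names, so gene lists gave no counts. Alternatives were a pseudocount of 0.1, median ratio and quantile scaling, no filter, form as a covariate, a replicate block, and leaving out replicates or seasons. Figures were drawn with matplotlib 3.10.9.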

Additional observations from a re-analysis of the deposited data

Results flagged for a closer look

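The change from day 0 to days 28 to 32 differed between the 3 seasons for 157 of the 220 transient genes (71.4%) by limma's moderated F test at an adjusted p under 0.05, which called 60.4% of all genes tested. Without replicate 2 the shares were 43.6% of the set and 46.4% of all genes, and without replicate 3 they were 52.3% and 51.2%. The median change over the set was -0.57 in 2012, -0.999 in 2013 and -0.06 in 2014 on the log2 scale. The last step before picking differed between seasons for 99 of the genes (45%) by the same test, which called 36.9% of all genes, and without replicate 2 the shares were 15% and 13%. Here the median change was 0.21 in 2012, -0.50 in 2013 and -0.07 in 2014. Both tests were chosen after seeing the data.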

How the results depend on the processing

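The number of genes meeting the selection rule was 275 with a pseudocount of 0.1, 279 with median ratio scaling and 271 with quantile normalization, which shared 220, 220 and 210 with the set, and 213 to 222 when a replicate number was left out. The median difference of all genes between early ripening and green berries was -0.24 as deposited, -0.11 with median ratio scaling and 0.09 with quantile normalization, and all 220 genes kept the sign of both steps under either. The genes called for the green step fell to 71 without 2013 (120 as reported), while over all genes the count fell to 901 (1140 as reported). For the last step before picking, the count of the set went to 1 with a pseudocount of 0.1, 5 without 2012, 2 without 2013 and 1 without 2014. Over all genes these counts were 71, 39, 21 and 50, against 7 as reported. For thinning over all time points the count of the set went to 1 with a pseudocount of 0.1, and that of all genes to 100 (168 as reported). For thinning on day 0 the count of the set was 14 without 2013, 0 without 2014 and 0 to 16 when a replicate number was left out. Over all genes these counts were 1603, 3 and 190 to 1544, against 1545 as reported. For thinning in early ripening the count of the set was 0 with a pseudocount of 0.1, with quantile normalization, with no filter, without 2012, without 2013, without 2014, and 0 to 0 without a replicate number. Over all genes these counts were 950, 715, 663, 742, 724, 1 and 26 to 629, against 875 as reported. With the form as a covariate, 11 genes of the set differed between 2014 and 2012. For the season by thinning test on day 0 the count of the set was 1 with a pseudocount of 0.1 and 0 to 1 without a replicate number. Counts over all genes are not given for these fits. The F tests of the season steps called 33 to 89 genes (last step) and 96 to 139 (days 28 to 32 against day 0) when a replicate number was left out, lowest without replicate 2, while all genes ranged from 13% to 34.1% and from 46.4% to 51.2%. The cause of these shifts was not tested. Each fit that left out a replicate or season also had a smaller number of samples. The season leave-outs of the steps in time and these F tests were chosen after seeing the data. Of 238 values of named genes under the alternatives, 217 kept their direction and call, 21 kept the direction but lost the call and 0 reversed.

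The replicate numbers were not taken to pair the arms: correlations of same-numbered libraries ran from -0.06 to 0.24 and exceeded 0.1 for all 3 numbers in 2012 alone. With a replicate block, 120 genes were called for the green step, 20 for the early step, 92 for days 28 to 32 against day 0, 85 for the mid step, 10 for thinning on day 0, 17 for 2013 against 2012 and 23 for 2014 against 2012, each within 1.5 times of the count without it. By direction the last was 5 higher and 18 lower, against 2 and 20 without the block. Depth is unknown, so differences of genes near 1 RPKM are limited by the pseudocount and not by a known count.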
